A study of Mus musculus with 5 samples.

Results

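Resident macrophages of the mouse dermis are commonly recognised by a small set of genes, and 7 of these were followed here: Mrc1, Cd163, Folr2, Lyve1, Timd4, Selenop and F13a1. They were taken by gene symbol, and all 7 were found among the 31053 genes of the count tables. The counts come from 5 droplet libraries of skin from C57BL/6 mice, with 1 library per group. Lesional whole skin came from K5. Pp6fl/fl mice of 18 weeks with psoriasis-like lesions and no treatment. In that name K5 is keratin 5, whose promoter is active in basal keratinocytes, and Pp6fl/fl is a floxed gene for the catalytic subunit of protein phosphatase 6. Imiquimod dermis came from wild-type mice of 10 weeks whose ear had received imiquimod, a TLR7 agonist cream, on 5 consecutive days. Untreated dermis came from wild-type mice of 10 weeks. Nonlesional epidermis of K5. Pp6fl/fl mice and untreated epidermis of wild-type mice, both of 10 weeks, completed the set. The body site of the lesional and untreated skin, the sex of the mice and the number of mice per library are not given in the sources used here.

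Dermal macrophages sit around vessels and between collagen fibres, where they take up debris, dying cells and matrix fragments. Part of the population is seeded early in life and part is replaced from blood monocytes, which acquire resident genes only after some time in the tissue. Mrc1 (CD206) is a mannose receptor that clears glycoproteins and collagen fragments, Cd163 takes up haemoglobin bound to haptoglobin, and Folr2 is a folate receptor held on the membrane by a lipid anchor. Lyve1 is a hyaluronan receptor shared with lymphatic vessels, and Timd4 binds phosphatidylserine on dying cells. Selenop is a secreted protein that carries selenium, and F13a1 is the A subunit of coagulation factor XIII, a transglutaminase that cross-links fibrin.

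The 7 genes lie on 6 chromosomes of GRCm38, with Folr2 (chr7:101839988-101857194) and Lyve1 (chr7:110850607-110863239) on the same one. Mrc1 lies at chr2:14229392-14332057, Cd163 at chr6:124304656-124330527 and Timd4 at chr11:46810800-46844332. F13a1 lies at chr13:36867178-37050244 and Selenop at chr15:3268547-3280508. RefSeq promoter windows of GRCm38.p6, running from 250 bases before to 50 bases after a transcription start, matched 6 of the 7 genes with 10 windows. Each window was searched on both strands for GAGGAAGT (reverse complement ACTTCCTC), a site of the myeloid factor PU.1, and for TGCTGAC (reverse complement GTCAGCA), the core of the element bound by the MAF factors that macrophages use. The PU.1 letters stood in 3 of the 10 windows and in 3.20% of all 32851 promoters, and the MAF letters in 1 of the 10 and in 4.67% of all. Of the 3 PU.1 matches, 2 were the same site in overlapping Selenop windows. A match describes letters only. The windows with a match, of Selenop, F13a1 and Timd4, are shown with the motif in capitals, read 5′ to 3′ on the strand of the gene.
Selenop promoter, chr15:3270517-3270816, plus strand, PU.1 letters from position -181: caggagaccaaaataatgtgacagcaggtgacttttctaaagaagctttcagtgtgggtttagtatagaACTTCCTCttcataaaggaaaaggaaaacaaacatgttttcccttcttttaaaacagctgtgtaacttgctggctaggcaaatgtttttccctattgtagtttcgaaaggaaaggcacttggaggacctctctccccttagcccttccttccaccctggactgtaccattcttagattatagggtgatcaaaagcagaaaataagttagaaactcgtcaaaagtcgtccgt
F13a1 promoter, chr13:37049164-37049463, minus strand, PU.1 letters from position 14: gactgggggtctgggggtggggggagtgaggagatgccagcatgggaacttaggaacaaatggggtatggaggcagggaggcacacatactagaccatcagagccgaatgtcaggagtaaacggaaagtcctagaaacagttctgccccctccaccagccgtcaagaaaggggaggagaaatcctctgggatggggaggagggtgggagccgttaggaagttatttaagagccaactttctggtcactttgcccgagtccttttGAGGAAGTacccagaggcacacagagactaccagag
Timd4 promoter, chr11:46810549-46810848, plus strand, MAF letters from position -45: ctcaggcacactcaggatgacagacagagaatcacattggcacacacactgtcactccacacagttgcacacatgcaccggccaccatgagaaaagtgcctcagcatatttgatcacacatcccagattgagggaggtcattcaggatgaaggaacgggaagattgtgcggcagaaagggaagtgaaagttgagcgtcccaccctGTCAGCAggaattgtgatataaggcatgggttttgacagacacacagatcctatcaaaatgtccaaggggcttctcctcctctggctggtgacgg
Positions count from 0 at the first transcribed base.

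The macrophages were found without the 7 genes. All libraries were clustered jointly after the 7 genes had been taken out, and clusters were named from marker lists that do not hold them. Macrophages and monocytes numbered 243 of 2596 cells in lesional skin (200 macrophages and 43 monocytes), 2410 of 4792 in imiquimod dermis (1881 and 529) and 240 of 519 in untreated dermis (240 and 0). Neither epidermis library held any. Their median depth was 9934 UMIs (unique molecular identifiers, 1 per captured transcript) in lesional skin, 7532 in imiquimod dermis and 4667 in untreated dermis. The 12 macrophage markers together made up 21716 CPM (the usual scaling of UMIs to the total of the class) in lesional skin, 6387 in imiquimod dermis and 22317 in untreated dermis. The 10 monocyte markers ran the other way, at 3662, 4222 and 352 CPM in the same order. The same name therefore covers different mixtures. Of the joint clusters, the one led by C1qc, Ccl8 and Cd36 held 131 of the 243 lesional cells and 211 of the 240 untreated cells but 82 of the 2410 imiquimod cells. Its name leaves out the 7 genes, of which Cd163, Folr2, Selenop and F13a1 were also among its 10 leading genes. Most imiquimod cells lay in clusters led by Clec4a2 and Aif1 (1029 cells), by Pf4 and Ms4a7 (674 cells) and by Chil3 and Plac8 (529 cells).

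Each group is 1 library, so no difference below has a replicate check and no test was run. Intervals are exact 95% intervals that cover counting error only. The kit captures 3′ ends, so a UMI stands for 1 transcript whatever its length and CPM values can be read between genes. The lesional library shared 0 cell barcodes with each of the other 4, which shared 1 to 27 with each other. Of the barcodes of the other 4 libraries, 25.7% to 27.1% began with 6 bases also found at the start of a lesional barcode, against 69.9% to 100% among those 4, although the labels give 1 kit for all libraries. Genotype, age, tissue layer and this difference in barcodes cannot be told apart from the lesion in any comparison with lesional skin.

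Among the receptors, Mrc1 was the most abundant. Summed over macrophages and monocytes, Mrc1 stood at 603 CPM (1578 UMIs) in lesional skin, 221 CPM (4618 UMIs) in imiquimod dermis and 696 CPM (892 UMIs) in untreated dermis. The scavenger receptor Cd163 stood at 200 CPM (523 UMIs) in lesional skin, 39.0 CPM (816) in imiquimod dermis and 285 CPM (365) in untreated dermis. The folate receptor Folr2 was close to Cd163, at 201 CPM (525 UMIs) in lesional skin, 54.3 CPM (1137) in imiquimod dermis and 313 CPM (401) in untreated dermis. For these 3 receptors the untreated dermis was highest, the lesional skin next and the imiquimod dermis lowest, and no pair of the counting intervals overlapped. In such sums, fewer cells of a type and less RNA per cell cannot be told apart, and the shares of cells follow further on.

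Lyve1 did not follow that order. It stood at 172 CPM (450 UMIs) in lesional skin, 8.55 CPM (179) in imiquimod dermis and 46.8 CPM (60) in untreated dermis, so the lesional library was the highest. Timd4 was rare everywhere, at 0.38 CPM (1 UMI) in lesional skin, 0.53 CPM (11 UMIs) in imiquimod dermis and 29.6 CPM (38 UMIs) in untreated dermis. Lesional and imiquimod macrophages thus held almost no Timd4.

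Of the secreted protein and the enzyme, Selenop was the most abundant of all 7 genes. It reached 1206 CPM (3155 UMIs) in lesional skin, 628 CPM (13146) in imiquimod dermis and 5312 CPM (6813) in untreated dermis. F13a1 stood at 585 CPM (1529 UMIs) in lesional skin, 186 CPM (3897) in imiquimod dermis and 759 CPM (974) in untreated dermis. Both were highest in untreated dermis and lowest in imiquimod dermis, with no overlap of the counting intervals.

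**Figure D1:**
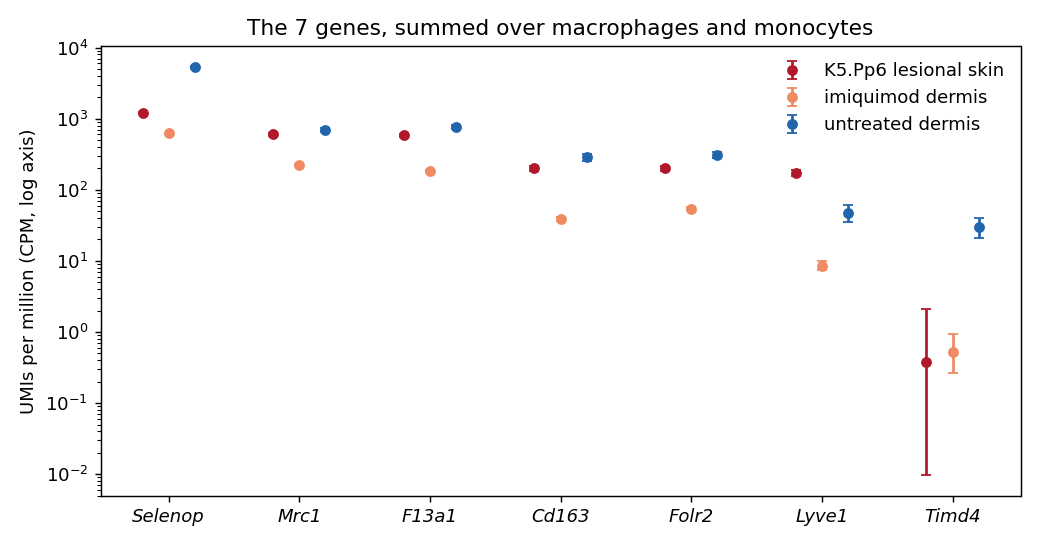
CPM (UMIs of a gene scaled to the total of the class, log axis) of each of the 7 genes summed over macrophages and monocytes of lesional skin, imiquimod dermis and untreated dermis, 1 library each. Bars are exact Poisson 95% intervals and cover counting error only. All 7 genes are lower in imiquimod dermis than in untreated dermis, while Lyve1 is highest in lesional skin at 172 CPM.

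After imiquimod all 7 genes were past 2-fold lower than in untreated dermis. Among the 7373 genes measured in this pair of libraries, 21.8% were past 2-fold lower and 6.78% past 2-fold higher. The fold was 56.4 for Timd4 (interval 28.2 to 122), 8.46 for Selenop (8.21 to 8.71), 7.30 for Cd163 (6.43 to 8.27) and 5.75 for Folr2 (5.12 to 6.45). It was 5.47 for Lyve1 (4.01 to 7.36), 4.08 for F13a1 (3.80 to 4.38) and 3.15 for Mrc1 (2.93 to 3.39). The median log2 ratio, with 5 CPM added to both values, was -2.42 over the 7 genes and -0.26 over all measured genes. The imiquimod cells also held more UMIs of neutrophil markers (2960 CPM with 8 of 8 genes found, against 66.3 CPM with 5 of 8 in untreated dermis, where Retnlg, Cxcr2 and Ly6g were at 0) and fewer of T cell markers (70.8 CPM with 12 of 12 genes found, against 295 CPM with 10 of 12, where Ncr1 and Klrb1c were at 0). An alternative chosen after seeing the data left out cells with a UMI of Cd3e, Cd3g, Cd3d, Trac or Trdc. With the remaining 2023 imiquimod and 200 untreated cells, all 7 genes stayed past 2-fold lower. The part of the neutrophil UMIs in the result was not tested.

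In lesional skin the 7 genes split. Lyve1 was 3.68-fold higher than in untreated dermis (2.80 to 4.90), where 13.5% of the 7824 measured genes were past 2-fold higher and 7.2% past 2-fold lower. Selenop was 4.404-fold lower (4.22 to 4.595), and Timd4 was 77.5-fold lower with an interval of 13.1 to 3141 that reflects its single lesional UMI. With cells thinned to 1000 UMIs no lesional Timd4 UMI was left, and 3 counts were put in its place. The log2 ratio of Timd4 was then -0.51 and no longer past 2-fold, a limit set by the depth and not a measured ratio. The other 4 were within 2-fold, at a lesional over untreated ratio of 0.64 (0.56 to 0.73) for Folr2, 0.70 (0.61 to 0.81) for Cd163, 0.77 (0.71 to 0.83) for F13a1 and 0.87 (0.80 to 0.94) for Mrc1. The median log2 ratio was -0.50 over the 7 genes and 0.13 over all measured genes. Taken over the macrophage clusters alone, without the monocytes, lesional Mrc1 stood at 711 CPM, against 696 CPM in untreated dermis, so the side on which Mrc1 fell depended on the monocytes counted in. Restricted to cells with a UMI of a C1q gene, the log2 ratios of Folr2, Cd163, F13a1 and Mrc1 turned to 0.09, 0.24, 0.07 and 0.58. The lesional cells also held more UMIs of neutrophil markers (522 CPM with 7 of 8 genes found and Ly6g at 0, against 66.3 CPM in untreated dermis) and of keratinocyte markers (154 CPM with 11 of 11 found, against 85.0 CPM with 11 of 11). T cell markers were fewer in sum (114 CPM with 8 of 12 found and Cd3e, Cd3g, Cd3d and Ncr1 at 0, against 295 CPM). Of the 9 measured ones, 7 were past 2-fold lower and 1 higher. The higher one was Il7r (78.8 against 36.6 CPM), which held 206 of the 298 lesional UMIs of the list. Without the cells that held a UMI of Cd3e, Cd3g, Cd3d, Trac or Trdc, 240 lesional and 200 untreated cells remained. Among them Lyve1 stayed past 2-fold higher, and Selenop and Timd4 past 2-fold lower. The part of the neutrophil and keratinocyte UMIs in the result was not tested. This comparison and the one with imiquimod share the untreated library.

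Set against imiquimod dermis, lesional skin was past 2-fold higher for 5 of the 7 genes, where 27.1% of the 7460 measured genes were past 2-fold higher and 3.61% past 2-fold lower. Lyve1 was 20.1-fold higher (16.9 to 24.1), Cd163 5.13-fold (4.59 to 5.73), Folr2 3.69-fold (3.32 to 4.10), F13a1 3.14-fold (2.96 to 3.33) and Mrc1 2.73-fold (2.58 to 2.90). Selenop was 1.92-fold higher (1.85 to 1.996) and so just inside 2-fold. Timd4 was near its floor in both libraries. The median log2 ratio was 1.62 over the 7 genes and 0.41 over all measured genes. Of the 3 comparisons this one puts side by side the pair of inflamed skins, which differed in genotype, age, tissue layer and cause of inflammation.

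A level can be low because few cells hold the transcript or because each holds little. To compare cells at 1 depth, every cell was thinned at random to 2000 UMIs, which left 220 cells of lesional skin, 2178 of imiquimod dermis and 184 of untreated dermis, with 23, 232 and 56 shallower cells left out in the same order. T cells and innate lymphoid cells, which should lack the 7 genes, gave the level of free RNA. Selenop was found in 20.5% of thinned T cells in lesional skin, 23.0% in imiquimod dermis and 28.4% in untreated dermis. Mrc1 was found in 0.99%, 2.62% and 7.95% of them in the same order, and each other gene in at most 2.27% in any library. Shares of Selenop below about these values would therefore be background.

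Nearly all untreated macrophages held Selenop. It was found in 55.9% of thinned cells in lesional skin (49.1 to 62.6), 47.0% in imiquimod dermis (44.9 to 49.1) and 95.1% in untreated dermis (90.9 to 97.7). The cells that had it also held different amounts, with a mean of 4.47 UMIs in lesional skin, 2.43 in imiquimod dermis and 12.8 in untreated dermis, all at the same depth of 2000. Both the share of cells with Selenop and the amount in each were thus lower in the inflamed libraries.

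Cd163 behaved otherwise. It was found in 9.55% of lesional cells (6.01 to 14.2), 4.45% of imiquimod cells (3.63 to 5.41) and 31.5% of untreated cells (24.9 to 38.8). A cell that had it held a mean of 4.86 UMIs in lesional skin, 1.57 in imiquimod dermis and 1.74 in untreated dermis. The lesional and untreated sums, which were within 2-fold, were thus reached through few cells with many copies in lesional skin and many cells with few copies in untreated dermis.

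Lyve1 was higher in lesional skin both in share and in amount per cell, in 10.9% of lesional cells with a mean of 3.17 UMIs, 1.15% of imiquimod cells with 1.20, and 5.43% of untreated cells with 1.40. The share intervals of lesional (7.12 to 15.8) and untreated cells (2.64 to 9.77) overlapped. Folr2 was found in 17.3%, 6.61% and 37.5% of lesional, imiquimod and untreated cells, with means of 2.18, 1.21 and 1.77 UMIs. Mrc1 was found in 40%, 29.1% and 72.8%, and F13a1 in 42.3%, 24.6% and 65.2%, in the same order. For these 3 genes, too, the untreated share was the highest and the imiquimod share the lowest. Timd4 was found in 0 of 220 lesional cells, which, at 3 counts, allows a share of cells with a UMI of up to 1.36%, in 1 of 2178 imiquimod cells and in 3 of 184 untreated cells.

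**Figure D2:**
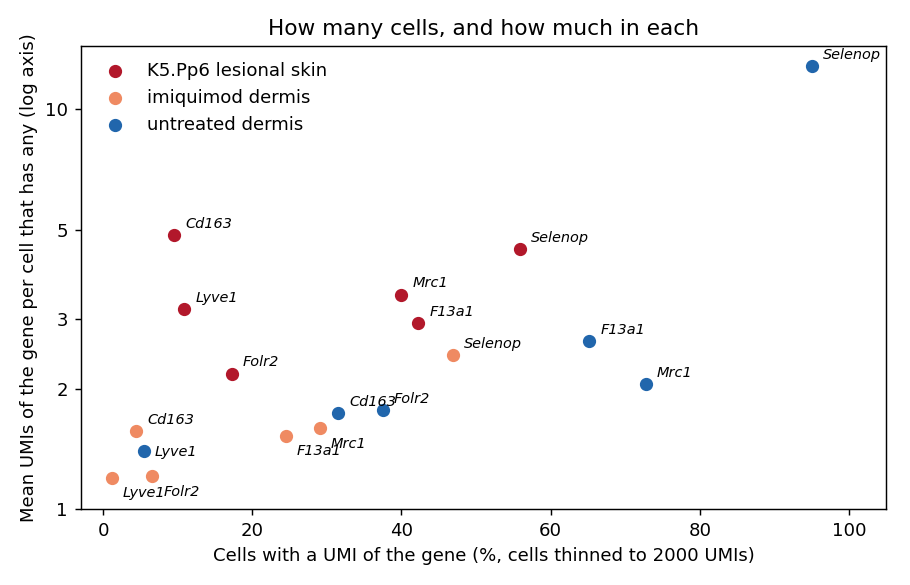
Share of macrophages and monocytes with a UMI of the gene (x axis, %) against the mean UMIs of that gene in the cells that have any (y axis, log), with each cell thinned to 2000 UMIs. Each point is 1 gene in 1 library, and genes found in under 10 cells are left out. Lesional Cd163 lies at few cells with many UMIs (9.55% and 4.86), whereas untreated Selenop lies at the top right (95.1% and 12.8).

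The 10% of thinned cells with most UMIs of a gene held 50.5% of the Selenop UMIs in lesional skin, 52.2% in imiquimod dermis and 23.9% in untreated dermis. For Mrc1 they held 58.4% in lesional skin, 58.4% in imiquimod dermis and 31.2% in untreated dermis. Genes found in about 10% of cells or fewer have nearly all their UMIs in such a group by construction and are not given. Over all 7 genes together the top 10% held 49.1% in lesional skin, 42.9% in imiquimod dermis and 21.8% in untreated dermis. The median of all thinned cells was 2 UMIs of the 7 genes in lesional skin, 1 in imiquimod dermis and 16 in untreated dermis.

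The genes were also counted per cell. At least 3 of the 7 genes were found in 55 of 220 lesional cells (25.0%, 19.4 to 31.3), 237 of 2178 imiquimod cells (10.9%, 9.60 to 12.3) and 130 of 184 untreated cells (70.7%, 63.5 to 77.1). None of the 7 was found in 55 lesional cells (25.0%), 721 imiquimod cells (33.1%) and 5 untreated cells (2.72%). At the other end, at least 5 genes were found in 26 lesional cells (11.8%), 23 imiquimod cells (1.06%) and 27 untreated cells (14.7%). The lesional and untreated intervals overlapped at 5 genes or more (7.87 to 16.8 and 9.90 to 20.6), although lesional cells without any of the genes were more frequent. Among T cells at the same depth, at least 3 genes were found in 0 of 404 lesional, 0 of 305 imiquimod and 1 of 88 untreated cells.

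**Figure D3:**
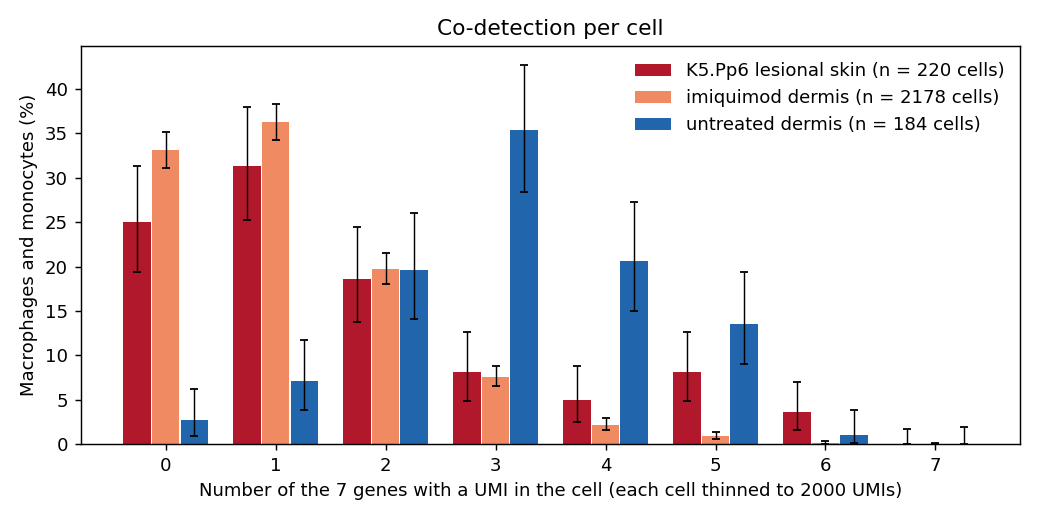
Share of macrophages and monocytes (%) that hold exactly 0 to 7 of the 7 genes, each cell thinned to 2000 UMIs, in lesional skin (220 cells), imiquimod dermis (2178 cells) and untreated dermis (184 cells). Bars carry exact binomial 95% intervals. Untreated cells peak at 3 genes, and lesional and imiquimod cells at 1 gene, with a tail of lesional cells at 5 and 6 genes.

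The genes were found together in a cell more often than their separate shares would give, though barely so for some pairs in untreated dermis. Of the 15 pairs of genes without Timd4, all 15 had an odds ratio above 1 in each library, computed with 0.5 added to each count of cells. The median odds ratio was 12.7 in lesional skin, 4.61 in imiquimod dermis and 2.33 in untreated dermis. The lowest was 2.49, 1.54 and 1.13 in the same order. In untreated dermis it belonged to Cd163 with F13a1. There F13a1 was found in 67.2% of cells with Cd163 (53.7 to 79.0) and in 64.3% of those without (55.3 to 72.6). The highest in lesional skin was 63.0, for Lyve1 with Folr2: of the 24 lesional cells with Lyve1, 87.5% also held Folr2, and of the 196 without Lyve1, 8.67% did. In imiquimod dermis the same pair had the highest value, 23.1, with Folr2 in 60% of 25 cells with Lyve1 and 5.99% of 2153 without. In untreated dermis Folr2 was found in 70.0% of 10 cells with Lyve1 and in 35.6% of 174 without. Lesional cells with Lyve1 also held Mrc1 in 95.8% and Cd163 in 41.7%, against 33.2% and 5.61% of lesional cells without it. The cells of a library share its free RNA and its mixture of cell types, so these ratios describe each library and carry no test.

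**Figure D4:**
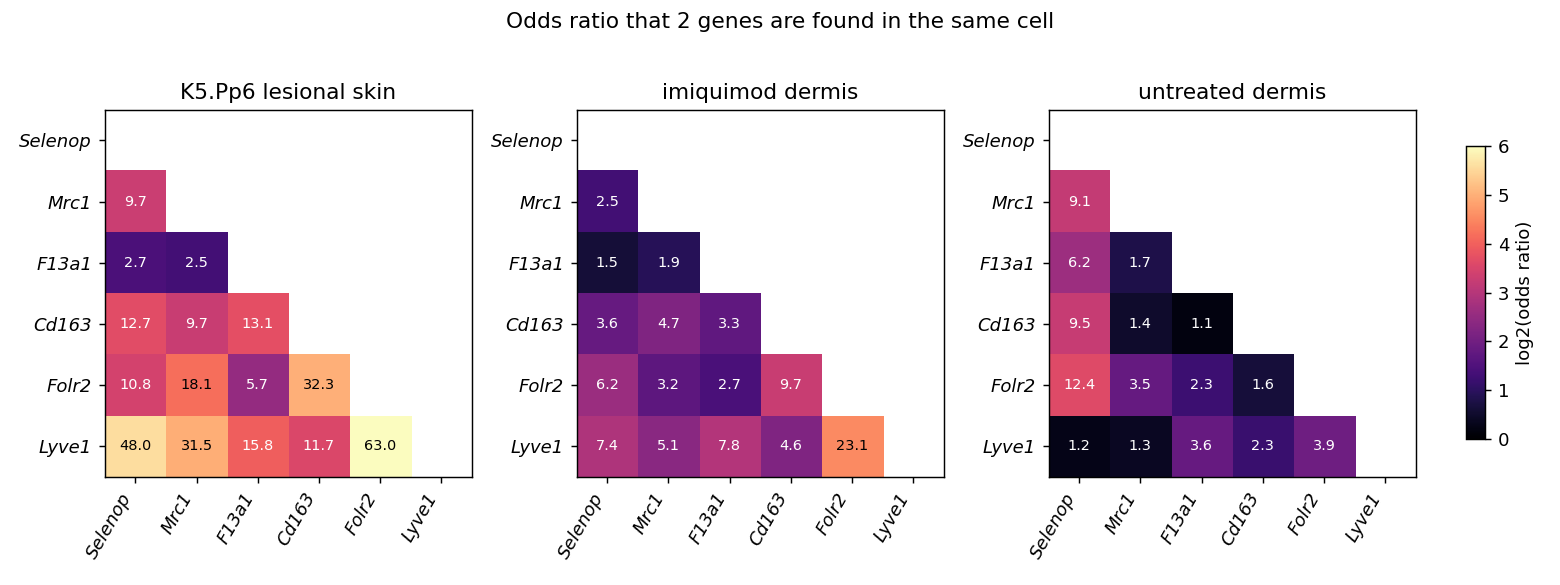
Odds ratio of finding 2 of the genes in the same macrophage or monocyte, with cells thinned to 2000 UMIs, for each pair of 6 genes in lesional skin, imiquimod dermis and untreated dermis (colour: log2 of the odds ratio). Lesional values run to 63.0 for Lyve1 with Folr2, and the median of the 15 pairs is 12.7 in lesional skin, 4.61 in imiquimod dermis and 2.33 in untreated dermis.

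The macrophages and monocytes were next split into 10 subclusters, again without the 7 genes and without other resident macrophage genes. The untreated cells lay in 1 subcluster (212 of 240), led by Pmp22, Cd209d and Stab1, which held 13 lesional and 0 imiquimod cells. Cd209d and Stab1 are on the list of other resident genes and took no part in the split. In this subcluster 74.7% of 162 thinned untreated cells held at least 3 of the 7 genes. Of the 10 thinned lesional cells in it, 6 did.

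Most lesional cells (129 of 243) lay in a subcluster led by Spp1 (osteopontin), Gpnmb and Mfge8, a bridge between dying cells and phagocytes, which held 8 imiquimod and 1 untreated cell. Of its 122 thinned lesional cells, 39.3% held at least 3 of the genes (30.6 to 48.6). Lyve1 reached 281 CPM in these cells, Folr2 315, Cd163 321, F13a1 752, Mrc1 937 and Selenop 1746 CPM. The 50 lesional cells of a subcluster led by Hes1 and Ace held 0 UMIs of Lyve1, Folr2, Cd163 and Timd4, and 0 of the 50 held at least 3 genes (exact interval 0 to 7.11%). The 28 lesional cells of a subcluster led by Slc7a11 and Cxcl2 held 0 UMIs of Lyve1 and Folr2 and 1 of Cd163. F13a1 was present in both, at 361 and 390 CPM, and Selenop at 207 and 164 CPM, near its level of 135 CPM in lesional T cells.

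The imiquimod cells were spread more widely. Among imiquimod cells, Selenop, Mrc1, F13a1, Folr2 and Cd163 were highest in a subcluster of 384 cells led by Cxcl13, Slc13a3 and Ccl8, with 32.7% of 361 thinned cells holding at least 3 genes (27.9 to 37.8). There Selenop reached 1475 CPM, Mrc1 404, F13a1 282, Folr2 164, Cd163 109 and Lyve1 25.7 CPM, each below its level in the main untreated subcluster, where the same genes stood at 5757, 728, 802, 325, 321 and 49.3 CPM. A larger subcluster of 746 cells led by Hilpda and Il1rn had at least 3 genes in 9.74% of 688 thinned cells, and the one led by Hes1 and Ace in 1.66% of 301. Subclusters found in 1 library mostly may reflect that library. In the joint cluster led by C1qc, Ccl8 and Cd36, the 82 imiquimod cells were not below the 211 untreated cells for every gene. Folr2 stood at 398 against 340 CPM, Lyve1 at 95.5 against 50.7 and Cd163 at 284 against 309 CPM. F13a1 stood at 746 against 814 CPM and Mrc1 at 700 against 739 CPM. Selenop (1776 against 5767 CPM) and Timd4 (1.82 against 33.2 CPM) were far lower in the imiquimod cells.

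F13a1 was not confined to macrophages. In the monocyte cluster it stood at 413 CPM in lesional skin and 202 CPM in imiquimod dermis, against 618 and 182 CPM in the macrophage clusters of the same libraries. The imiquimod macrophages were a mixture. The joint cluster led by Clec4a2 and Aif1, 1029 of the 1881 cells, scored 0.418 for macrophages and 0.402 for monocytes and held F13a1 at 126 CPM. The 82 imiquimod cells of the cluster led by C1qc, Ccl8 and Cd36, which has F13a1 among its leading genes, held it at 746 CPM. Lyve1, Timd4, Folr2 and Cd163 were each at or below 5.64 CPM in the monocytes of either library, and Mrc1 stood at 44.8 CPM in lesional and 30.5 CPM in imiquimod monocytes.

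Outside the macrophages, Lyve1 marked the lymphatic vessels. The 85 lesional lymphatic endothelial cells held Lyve1 at 1948 CPM and 77.4% of all lesional Lyve1 UMIs, whereas macrophages and monocytes held 16.2%. Lymphatic cells numbered under 20 in the imiquimod and untreated dermis. All 36 lesional macrophages with Lyve1 also held a C1q UMI, and 2 of them held a UMI of a lymphatic marker. Of the 88 imiquimod macrophages with Lyve1, 86 held a C1q UMI and 29 a lymphatic one, and of the 26 untreated ones, 26 and 2 did. A lymphatic marker here is one of Prox1, Ccl21a, Mmrn1, Flt4 and Reln. Of the macrophages with Lyve1, 5.56% held such a UMI in lesional skin, 33.0% in imiquimod dermis and 7.69% in untreated dermis, against 4.35%, 18.9% and 2.34% of those without Lyve1. Summed over macrophages and monocytes, the 5 markers stood at 4.59 CPM in lesional skin (3 found, Prox1 and Reln at 0), 27.8 CPM in imiquimod dermis (5 found) and 6.24 CPM in untreated dermis (1 found, Prox1, Mmrn1, Flt4 and Reln at 0). The sixth marker of the list, Pdpn (podoplanin), is not specific to lymphatic cells and stood at 126 CPM in lesional skin, 8.32 CPM in imiquimod dermis and 8.58 CPM in untreated dermis. Without every macrophage that held a UMI of the 5 markers, an alternative chosen after seeing the data, the log2 ratio of Lyve1 was 1.89 between lesional skin and untreated dermis, against 1.88 with them, and -2.68 between imiquimod and untreated dermis, against -2.45.

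Timd4 was found mainly in dendritic cells. In untreated dermis the 75 dendritic cells held it at 220 CPM (187 to 257) in 28.0% of cells, against 29.6 CPM and 5.00% in macrophages, and they held 160 of the 198 Timd4 UMIs of the library. In lesional and imiquimod dendritic cells it stood at 14.99 CPM (20 UMIs in 127 cells) and 7.11 CPM (34 UMIs in 423 cells). The untreated dendritic cells with Timd4 (21 cells) held Ccr7, the receptor of migrating dendritic cells, in 57.1%, the lectin Mgl2 in 95.2% and C1qa in 23.8%, against 16.7%, 61.1% and 27.8% of the 54 without Timd4. Other macrophage markers lay on both sides. C1qb (38.1% against 29.6%) and Csf1r (42.9% against 31.5%) were found more often with Timd4. C1qc (33.3% against 37.0%) and Adgre1 (33.3% against 35.2%) were found less often. In level, Ccr7 stood at 1186 CPM with Timd4 and 457 CPM without, whereas Mgl2 stood at 885 and 1023 CPM. Fscn1, another gene of migrating dendritic cells, was found in 9.52% and 7.41% of cells, at 38.0 against 183 CPM. Ccl22 was found in 38.1% and 20.4%, at 557 against 726 CPM. In lesional skin (7 cells with Timd4) Fscn1 stood at 703 against 78.4 CPM and Ccl22 at 262 against 154 CPM. In imiquimod dermis (14 cells with Timd4) they stood at 448 against 235 CPM and 762 against 238 CPM. Mgl2 stood at 310 against 632 CPM in lesional skin and 193 against 165 CPM in imiquimod dermis. The lectin Cd209a stood at 418 against 308 CPM in untreated dermis, 11.9 against 536 in lesional skin and 38.6 against 112 in imiquimod dermis. Flt3 and Zbtb46, also dendritic cell markers, stood higher with Timd4 in each library. The untreated cells with Timd4 were deeper than those without, with a median of 12442 UMIs against 8941, and the part of depth in these shares was not tested. These genes were chosen after the level of Timd4 in dendritic cells had been seen.

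Selenop was the broadest of the 7. It stood at 3122 CPM in the lesional melanocytes (27 cells), 841 CPM in lesional lymphatic endothelium, and 616 and 684 CPM in the fibroblasts of lesional skin and untreated dermis. Dendritic cells held little of the other receptors except Mrc1 (151 CPM in lesional, 66.1 in imiquimod and 64.6 in untreated dendritic cells) and Cd163 (62.2, 8.995 and 49.5 CPM in the same order). Folr2, at 0.75, 5.23 and 1.38 CPM in them, and Lyve1, with 0 UMIs in lesional and untreated dendritic cells, were near absent there.

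**Figure D5:**
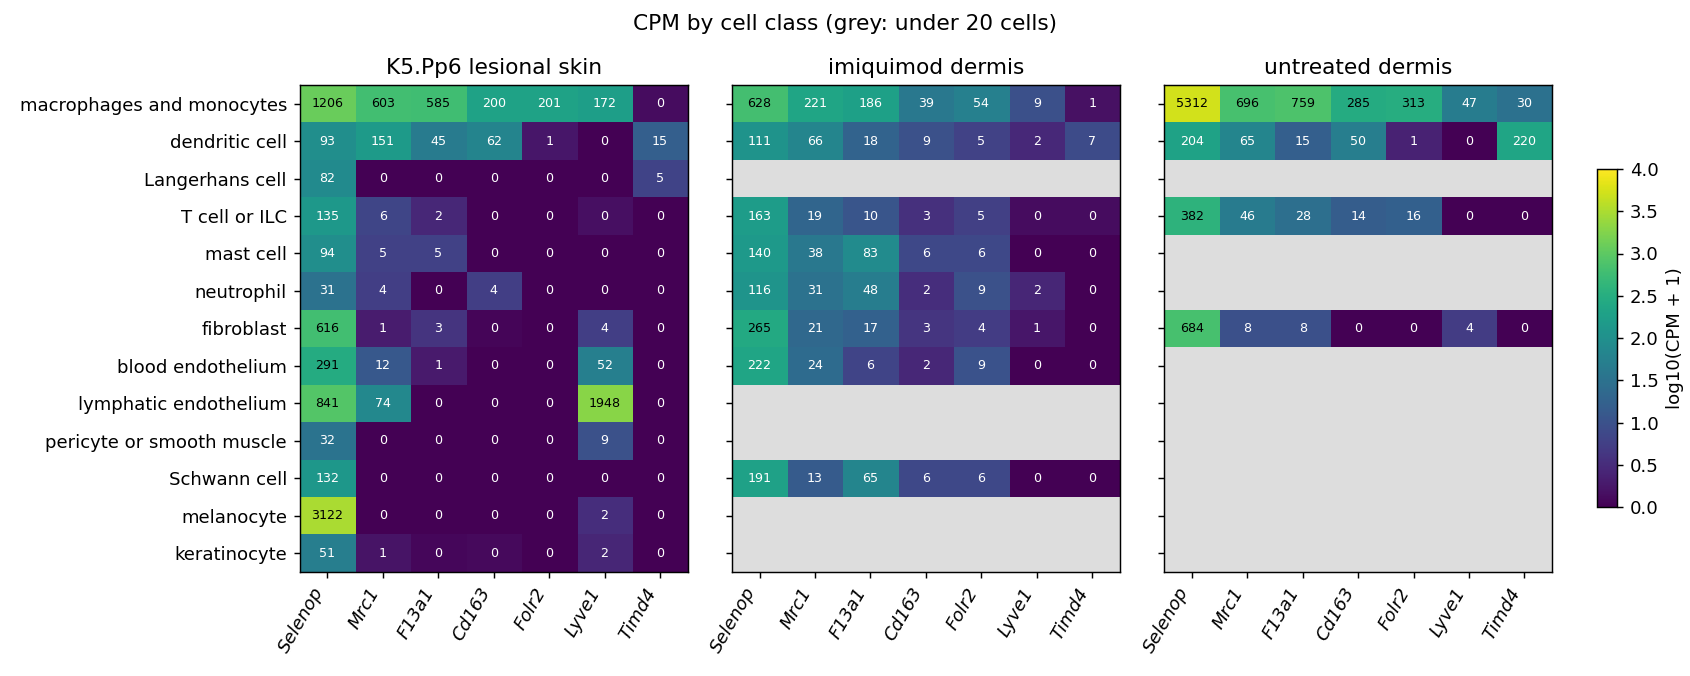
CPM of the 7 genes in each cell class with at least 20 cells in lesional skin, imiquimod dermis and untreated dermis (numbers: CPM, colour: log10 of CPM + 1, grey: under 20 cells). Lyve1 peaks in lymphatic endothelium (1948 CPM), Timd4 in untreated dendritic cells (220 CPM), and Selenop is found in melanocytes, fibroblasts and endothelium besides macrophages.

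Other genes of resident macrophages were set beside the 7. This list and those below were chosen with earlier results of these data known, so they give no independent check. Over all measured genes, 21.8% were past 2-fold lower and 6.78% higher after imiquimod. In lesional skin 7.2% were lower and 13.5% higher than in untreated dermis, and 3.61% lower and 27.1% higher than in imiquimod dermis. Of the 30 measured genes of the resident list, 29 were past 2-fold lower and 1 higher after imiquimod, with a median log2 ratio of -2.68. Furthest below untreated dermis were Retnla (0.53 against 200 CPM in untreated dermis), the lectins Cd209d (16.2 against 340 CPM) and Mgl2 (16.5 against 335 CPM), and the eosinophil chemokine Ccl24 (22.5 against 283 CPM). In lesional skin 19 of 30 were past 2-fold lower and 1 higher than in untreated dermis (median -1.28), among them the monocyte chemokine Ccl7 (126 against 1373 CPM) and Ccl24 (32.9 against 283 CPM). The complement receptor Vsig4 (CRIg) stood at 24.9 CPM (65 UMIs) in lesional skin, against 0 UMIs in untreated dermis. Retnla, near 0 after imiquimod, stood at 188 CPM in lesional skin. Against imiquimod dermis, lesional skin was past 2-fold higher for 22 of the 30 and lower for 2 (median 1.35).

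Monocyte genes were higher in both inflamed libraries. Of 19 measured monocyte genes, 15 were past 2-fold higher and 0 lower after imiquimod (median 2.30), led by Hp, haptoglobin (419 against 3.12 CPM in untreated dermis), Chil3 (995 against 21.1 CPM) and Plac8 (1449 against 71.0 CPM). In lesional skin 17 were higher and 0 lower than in untreated dermis (median 2.30). Between lesional skin and imiquimod dermis 2 were higher and 2 lower, with Fn1, fibronectin, at 424 against 92.0 CPM and Ly6c2 at 129 against 360 CPM.

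For macrophage transcription factors the medians lay nearer to 0. After imiquimod 7 of 20 were past 2-fold lower and 0 higher (median -0.43), among them Bhlhe41 (1.91 against 26.5 CPM in untreated dermis), Klf4 (141 against 464 CPM) and Maf (151 against 477 CPM). In lesional skin 6 of 20 were higher than in untreated dermis and 0 lower (median 0.28). They included Nr1h3, the oxysterol receptor LXR alpha (48.2 CPM in lesional skin, against 8.58 CPM in untreated dermis). Of 13 measured genes of CSF1 and IL-4 signalling, 1 was higher and 3 lower after imiquimod, with Csf1r, the receptor that keeps macrophages alive, at 217 CPM against 769 CPM in untreated dermis. In lesional skin 4 were higher and 0 lower than in untreated dermis, with Il4ra at 149 against 50.7 CPM.

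Genes that serve the same functions as the 7 lay on both sides. Of 15 measured scavenging and efferocytosis genes, 1 was higher and 8 lower after imiquimod (median -1.002), with the lipid scavenger Cd36 at 38.2 against 438 CPM in untreated dermis. In lesional skin 6 were higher and 2 lower than in untreated dermis (median 0.65), with Mfge8 at 730 against 67.8 CPM. Of the haem and iron genes, the haptoglobin partner of Cd163, Hp, was higher in both inflamed libraries while the transferrin receptor Tfrc was lower in both (15.7 CPM in lesional skin and 15.6 in imiquimod dermis, against 107 CPM in untreated dermis). Of the 13 measured, 2 were higher and 4 lower in lesional skin, and 1 higher and 5 lower in imiquimod dermis, than in untreated dermis.

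Most other selenoprotein genes stayed within 2-fold, unlike Selenop. Of 14 measured, 1 was past 2-fold higher and 2 lower after imiquimod (median -0.01), and of 15 measured, 1 was higher and 0 lower in lesional skin (median 0.23). The methionine sulfoxide reductase Msrb1 was the higher one in both, at 376 CPM in lesional skin and 577 CPM in imiquimod dermis, against 113 CPM in untreated dermis. Coagulation genes beside F13a1 were lower in 4 and higher in 1 of 8 after imiquimod, with F10 at 103 against 20.3 CPM in untreated dermis. In lesional skin 6 of 11 were higher and 1 lower, with Tgm2, another transglutaminase, at 89.1 against 10.1 CPM. Of the folate genes beside Folr2, 3 of 6 were higher and 2 lower after imiquimod, and 1 of 5 was higher and 1 lower in lesional skin. C-type lectins and hyaluronan receptors beside Mrc1 and Lyve1 were higher in 2 and lower in 1 of 10 after imiquimod and higher in 2 and lower in 0 of 11 in lesional skin.

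Within a library, thinned cells that held at least 3 of the 7 genes were set beside cells that held none, and other genes were ranked by the ratio of their CPM with 10 CPM added. This describes likeness in 1 library and is no test. In lesional skin, macrophage clusters gave 55 of the 55 cells with at least 3 genes and 41 of the 55 without any. In imiquimod dermis they gave 230 of 237 and 479 of 721. The remaining cells were monocytes, and the part of this difference in the ranking was not tested. In lesional skin (55 cells with, 55 without) the highest were Ccl8, a chemokine (4673 CPM in cells with, 0 UMIs in cells without), Retnla (691 CPM, 0 UMIs), Cd209d (536 CPM, 0 UMIs), Mucl1, Gas6, a ligand of efferocytosis receptors (673 against 9.09 CPM), Fcrls, Cbr2, C4b, Rnase4 and Tns1. In imiquimod dermis (237 with, 721 without) they were Ccl8 (2882 against 135 CPM), Cbr2 (249 against 14.6 CPM), Pmp22, Pf4 (7251 against 782 CPM), Npl, Gas6 (165 against 11.1 CPM), Igf1, Wwp1, Timp2 and Clec10a. Ccl8, Cbr2 and Gas6 stood in both lists. Only genes with at least 100 CPM in the cells with the members were ranked, so genes nearly absent from those cells could not appear among the lowest. Lesional Thbs1, Msrb1 and Dusp2 lay at that limit. Of the genes ranked, the lowest were Tmsb10 (155 against 1818 CPM), Hes1, Thbs1, Prdx5, Cd52, Msrb1, Aprt, Pim1, Dusp2 and Rgs1 in lesional skin, and Plac8 (414 against 2191 CPM), Hp, Gngt2, Clec4e, Il1b (422 against 1177 CPM), Cxcl2, Lsp1, Taldo1, Chil3 and Hspa1a in imiquimod dermis. Plac8, Hp, Clec4e and Chil3 are among the monocyte markers used to name the clusters. Untreated dermis had 5 cells without any of the genes, too few for the ranking. With cells that held at least 2 genes, chosen in place of at least 3, all 10 of the highest genes were the same in lesional skin and 4 were in imiquimod dermis. Of the 10 lowest genes, 1 was the same in lesional skin, Hes1, and 6 were in imiquimod dermis.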

How the data were processed

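The members were taken by symbol, and they and all gene lists were chosen with earlier results of these data known. The values that the authors deposited are raw UMI counts per gene and cell barcode for 31053 genes, without normalization. Per the labels' protocols, cells were freed by enzymes, sorted to leave out dead ones and processed in every library with 1 kit, Chromium Single Cell 3′ v3. CASAVA and Cell Ranger with mm10 are named in the submitters' processing notes, and version 3.0.2 stands in the matrix headers. The sources used here do not give the calling of cells or any removal of free RNA.

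From these counts, barcodes with at least 200 genes and under 20% mitochondrial UMIs were kept (519 to 4792 per library). Doublets were scored with Scrublet in scanpy 1.11.5, and the top-scoring 0.8% per 1000 cells were removed, 2 to 199 per library. Cells were clustered jointly without batch correction (2000 variable genes without the 7 members, 30 principal components, 15 neighbours, Leiden resolution 1), and clusters were named from marker lists. A class needed a score of at least 0.25 and 3 markers, and clusters whose second class reached 0.7 of the best with 3 markers detected were set aside as mixed, except where the pair was macrophage and monocyte, which were pooled for the sums. Class names rest on these markers alone. The subclusters used 20 components and resolution 0.5, without the members and other resident genes.

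UMIs were summed per class and library and divided by the class total to give CPM, with Poisson, conditional binomial (ratios) and Clopper-Pearson (shares) 95% intervals. Genes with 10 or more UMIs in a pair of libraries and 10 CPM in either counted as measured, and were called where the ratio was past 2-fold. Log2 ratios of lists had 5 CPM added. For shares, cells were thinned to 2000 UMIs. No test was run, since each group has 1 library. Each member is always named, of each list among the 4 measured genes with the largest log2 ratio, and of likeness the 10 highest and 10 lowest genes with at least 100 CPM in cells with the members. Retnla in lesional skin against untreated dermis and the dendritic cell genes beside Timd4 were chosen after their values were seen. The calling of ratios was tested on simulated counts. RefSeq promoters of GRCm38.p6 and GENCODE gene positions of GRCm38 were read from the reference. Alternatives changed the filter, doublets, clustering, thinning, scaling and the cells counted.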

Additional observations from a re-analysis of the deposited data

Results flagged for a closer look

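One value outside the comparisons of macrophages lay above its level in control samples. Selenop was counted at 38.6 CPM (803 UMIs) over all cells of the nonlesional K5. Pp6fl/fl epidermis, against 30.9 CPM (119 UMIs) in untreated epidermis, a ratio of 1.25 (1.03 to 1.53, counting error only). Neither epidermis library held macrophages. Of the cell classes of the nonlesional epidermis, melanocytes (54 cells) held Selenop at 1100 CPM. Whether the number of melanocytes bears on the ratio was not tested.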

How the results depend on the processing

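No paired analysis was possible because each group has 1 library. Over 16 alternatives and 3 comparisons, 326 of 336 log2 ratios of the 7 genes kept their direction, and no gene past 2-fold changed direction. The counts of genes past 2-fold stayed within 1.5 times of those reported. The exceptions in direction were Timd4 between lesional skin and imiquimod dermis, with 1 and 11 UMIs, and Folr2, Cd163, F13a1 and Mrc1 between lesional skin and untreated dermis. Lesional Selenop, 0.94 on the log2 scale against imiquimod dermis, ran from 0.46 to 1.32 and was past 2-fold in 5 of the 16. Shares of cells with at least 3 genes depend on depth and on the cells counted. Thinned to 1000 UMIs they were 4.18% in imiquimod dermis and 50.9% in untreated dermis. Thinned to 4000 they were 33.7% in lesional skin, 21.05% in imiquimod dermis and 86.0% in untreated dermis, and without thinning 39.5%, 33.0% and 85.0%. Among cells with a C1q UMI they were 43.5% in lesional skin and 15.4% in imiquimod dermis, and 13.9% in imiquimod dermis over the macrophage clusters alone. Untreated dermis was highest in every setting. Depth limits Timd4 and Lyve1 most, with 38 and 60 UMIs in untreated macrophages.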
